A study of Trichoderma reesei with 8 samples.

Results

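Of the 9143 genes of *Trichoderma reesei* in the table, 74 had more transcript without the transcription factor gene *ypr2* in darkness and a wildtype level in light within 0.7 to 1.4 times that in darkness. They were chosen by the measured values. CPM (counts per Mio counts of a library) was averaged over the 2 cultures of a group, and 0.5 was added. A gene was taken if a group mean reached 5 CPM, if ∆*ypr2* was at least 2.8 times the wildtype in darkness, and if the ratio of the wildtype in light to the wildtype in darkness was within that range. The level and the darkness ratio alone were met by 392 genes. From these 19 of a list of 21 genes were left out, 6 of them within the light limits. Of the remaining 373 genes, 226 were above the light limits in the wildtype and 73 below, and these sets serve below for comparison. Since 0.5 is added, the light limits say little about genes near 0 counts. edgeR called TR_103156 lower in light in the wildtype (log2 -4.95 with 0 counts in light, as were 14.4% of all genes tested), and TR_109925 (-1.79) and TR_105287 (-1.12) had fitted changes beyond 2-fold without a call. In edgeR 19 of the 74 had an unadjusted p under 0.05 for light in the wildtype (74.4% of all genes tested). Of these 13 had an adjusted p under 0.05, among them genes with many counts such as TR_51686 (log2 -0.36, edgeR adjusted p = 0.00046). The rule used that contrast, so these values are a description.

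RNA-seq was done for wildtype QM6a and for ∆*ypr2*, a strain in which *ypr2* is deleted. Both were grown in liquid minimal medium with 1% cellulose and 0.1% peptone for 72 h at 28 °C, either in constant light of 1600 lux (LL) or in constant darkness (DD), from conidia of plates kept dark for 14 days. There were 2 cultures for each of the 4 groups (QM6a LL, ∆*ypr2* LL, QM6a DD, ∆*ypr2* DD). With a single deletion strain and no strain with *ypr2* put back among these libraries, strain and deletion cannot be told apart. The study also reports that the biomass of ∆*ypr2* in darkness was only a small part of that of the wildtype, with no significant difference in light. How far growth bears on the levels in darkness was not tested.

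YPR2 belongs to the fungal regulators with a zinc binuclear cluster, and its gene lies in the cluster for sorbicillin, a yellow polyketide of this fungus. *T. reesei* is known for secreting cellulases on cellulose, and light shifts much of its metabolism. The limits used here hold that light response to a small size in the wildtype but do not exclude it. Pyruvate decarboxylase, which has a prominent place among the 74 genes, turns pyruvate into acetaldehyde, from where aldehyde dehydrogenases lead to acetate and alcohol dehydrogenases to ethanol.

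The libraries held 16.9 to 22.9 Mio counts, so that 1 count was worth 0.0436 to 0.0592 CPM. The transcript of *ypr2* was at a mean of 151 CPM in the wildtype in darkness and 32.2 CPM in light, against 0.396 and 0 CPM in ∆*ypr2*. Markers of conidiation, the formation of asexual spores, were the only markers of another cell state that could be set against mycelium. Since *ccg-1* is annotated as a glucose repressible protein and *ccg-14* as an unknown protein, their sums are no measure of spore content. Without *ccg-1* and *medA*, the most abundant, the markers summed to 52.2 to 65.0 CPM in the wildtype and 249 to 291 CPM in ∆*ypr2* in darkness, and to 164 to 184 and 141 to 180 CPM in light. All 8 markers summed to 1137 to 1148 CPM in the wildtype and 1775 to 1782 CPM in ∆*ypr2* in darkness, and to 1956 to 2014 and 1679 to 1741 CPM in light. In darkness 7 of the 8 were called upregulated (9.68% of all genes tested) and *medA*, a developmental regulator, downregulated. The markers come from genes that the study had annotated because it called them on these samples, so these calls are no independent evidence. In light 0 of 8 were called by edgeR, DESeq2 or limma-voom (3 had an unadjusted p under 0.05 in edgeR). *con-13* had 0 counts in 1 light library of each strain. None of the 8 is among the 74 genes, and their part in the results below was not tested. In bulk mycelium, fewer cells of a kind and less RNA per cell cannot be told apart.

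All 74 genes passed the filter on low counts. In both ∆*ypr2* libraries from darkness each of the 74 genes was above all 6 other libraries (16.6% of the 8469 genes tested), which the limits on 6 of the 8 libraries largely fix. The gene nearest to the other libraries had its lower ∆*ypr2* value at 1.29 times the highest of them, and the median was 2.92 times. The median gene was at 4.79 CPM in QM6a DD, 4.14 in QM6a LL, 5.51 in ∆*ypr2* LL and 24.1 in ∆*ypr2* DD (medians of group means). Per kb of gene span these medians were 4.15, 4.66, 5.81 and 21.3 CPM, where all genes tested had 25.7, 27.3, 27.3 and 27.3. Thus the median of the 74 genes was low in 3 groups and near the middle of the transcriptome in the fourth. In each of these 3 groups 4 of the genes had a mean of at least 100 CPM. A mean under 5 CPM in all 3 other groups was found for 36 of the 74, and under 1 CPM for 8. These 36 genes met the level limit only through ∆*ypr2* DD, which the rule chose high, so the counts are a description.

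**Figure D1:**
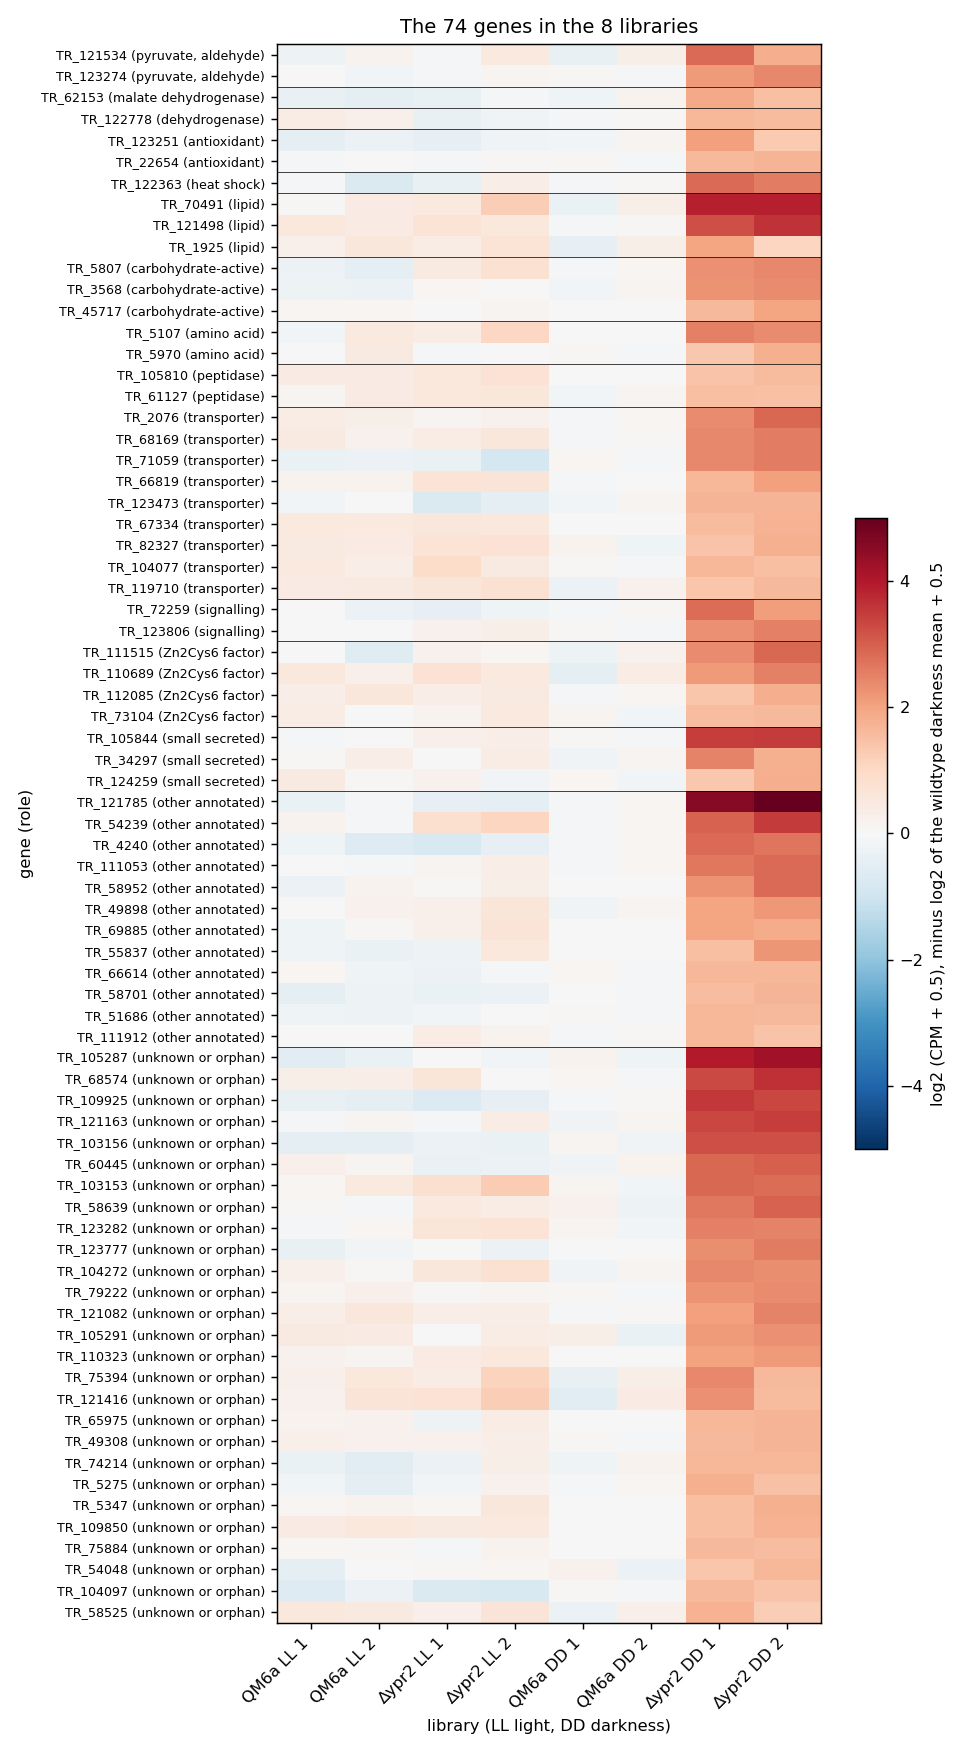
Transcript level of the 74 genes (rows, by role) in the 8 libraries (columns; LL light, DD darkness), as log2 of CPM + 0.5 minus log2 of the wildtype darkness mean + 0.5. The color leaves the pale range in the 2 ∆*ypr2* libraries from darkness, up to the RNA helicase gene TR_121785 at a ratio of 28.2 between the group means.

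Summed over the 74 genes, the libraries held 1591 and 1943 CPM in QM6a DD, 1856 and 2060 in QM6a LL, 1968 and 2426 in ∆*ypr2* LL, and 8103 and 6552 in ∆*ypr2* DD. The ∆*ypr2* cultures in darkness were thus far above the rest. Among the others QM6a LL overlapped with both groups, while ∆*ypr2* LL lay above QM6a DD. The sum was 4.15 times that of the wildtype in darkness, and 3.84 times without the pyruvate decarboxylase gene, which alone gave 26.3% of the sum in ∆*ypr2* DD. In edgeR all 74 genes were called in darkness (adjusted p under 0.01 and at least 2-fold). Of all genes tested 9.68% were called upregulated there, and since the same contrast chose the genes, nothing follows from this count. The ratio of the chosen genes was between 2.81 and 28.2 with a median of 4.22. It reached 4 in 39 genes, 5 in 30, 8 in 10 and 10 in 8 genes.

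Just inside the darkness limit stood TR_61127 (serine carboxypeptidase, ratio 2.81), TR_58525 (unknown, 2.84) and TR_119710 (multidrug transporter, 2.85). Just outside it stood TR_80920 (alcohol dehydrogenase ADH1, 2.797), TR_57940 (alternative oxidase, 2.77) and TR_45598 (unknown, 2.76). At the upper limit of the wildtype light ratio, TR_58525 (1.398), TR_121498 (1.393) and TR_67334 (1.391) were inside and TR_81420 (1.421), TR_4231 (1.433) and TR_109972 (1.443) outside. At the lower limit, TR_104097 (0.728), TR_103156 (0.730) and TR_105287 (0.731) were inside and TR_79329 (0.696), TR_58774 (0.683) and TR_123659 (0.683) outside.

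By annotation 35 of the 74 genes fell into at least 1 list of functions, 12 had another annotation, and 27 were listed as unknown or orphan proteins. One of these 27, TR_5275, is listed as unknown but described as a SET domain protein related to Set2, a histone methyltransferase of yeast. In the following, log2 fold changes in darkness are given with their standard error as a description of the chosen genes, and the replicate values come first. Each standard error was worked back from the fold change and the F value of edgeR, and can be too small at few counts. The lists hold only genes that the study had annotated because it called them on these samples, so their counts in darkness are no independent evidence of direction.

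Central carbon metabolism was represented by a few abundant transcripts. The pyruvate decarboxylase gene *pdc1* (TR_121534, scaffold 8, 104026 to 106334) had 276 and 444 CPM in QM6a DD and 2588 and 1260 in ∆*ypr2* DD, while in light it had 301 and 404 CPM in QM6a and 337 and 508 in ∆*ypr2*. The dark ∆*ypr2* cultures lay above all others but differed from each other more than for any other of the 74 genes, with replicate 2 at 0.487 times replicate 1. Its log2 fold change in darkness was 2.37 ± 0.36, and 1.74 without replicate 1 of ∆*ypr2* DD. TR_123274 (scaffold 19, 569104 to 570858) is annotated as an aldehyde dehydrogenase, while another annotation of the same gene names an arylsulfatase domain. It had 66.9 and 62.9 CPM in QM6a DD and 282 and 348 in ∆*ypr2* DD, against 65.1 and 58.6 (QM6a) and 62.4 and 70.9 (∆*ypr2*) in light. Here 6 libraries lay close together and the remaining 2 apart (log2 2.22 ± 0.10). Of the 21 annotated pyruvate, alcohol and organic acid genes, 19 were called upregulated and 2 downregulated in darkness.

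A malate dehydrogenase gene (TR_62153, scaffold 10, 244154 to 246194), whose enzyme interconverts malate and oxaloacetate, had 33.1 and 44.1 CPM in QM6a DD and 144 and 109 in ∆*ypr2* DD. In light its levels of 30.1 and 28.3 CPM in QM6a and 30.1 and 36.6 in ∆*ypr2* overlapped narrowly. It was the only gene of the glyoxylate cycle and gluconeogenesis list among the 74 (log2 1.66 ± 0.17). Of the 14 annotated genes of that list 12 were called up and 1 down in darkness, and 6 were in the set higher in light in the wildtype. No gene of trehalose metabolism was among the 74, whereas 3 of its 4 annotated genes were in that light-raised set. That set holds 226 genes, and a list of 4 is too short to set the 74 apart. TR_122778, a short chain dehydrogenase/reductase, had 42.4 and 44.9 CPM in QM6a DD and 138 and 131 in ∆*ypr2* DD, and is taken up again for light.

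**Figure D2:**
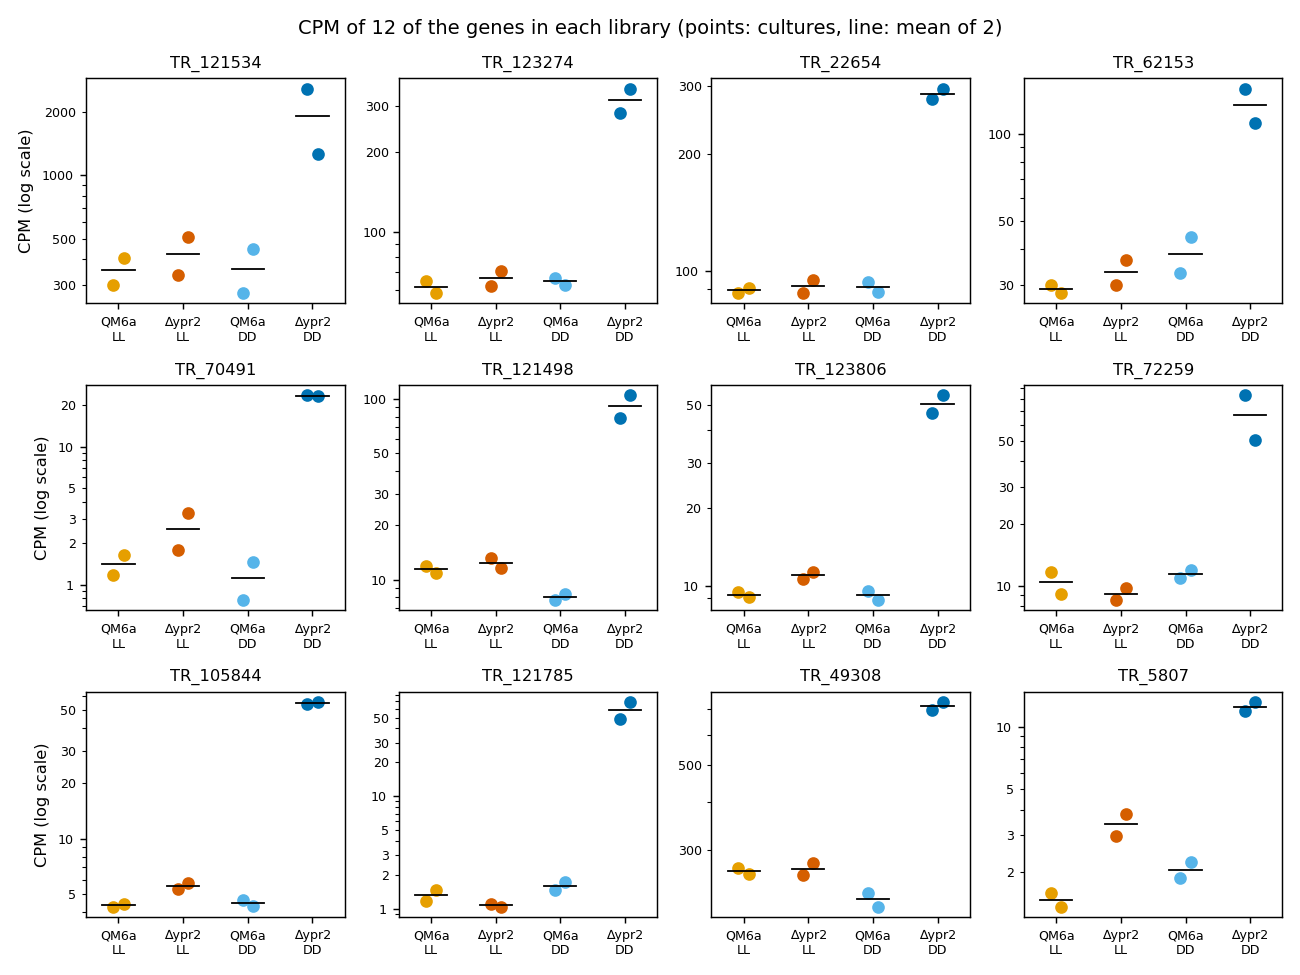
CPM on a log axis of 12 of the 74 genes, with 1 point for each culture and a line at the mean of 2. In every panel both points of ∆*ypr2* in darkness lie above the other 6, and *pdc1* (TR_121534) has the widest gap between them, 2588 against 1260 CPM.

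Genes annotated as antioxidant, heat shock or stress response genes were few. In darkness 14 of the 19 annotated antioxidant genes were called up and 2 down, and 7 of the 8 heat shock genes up and 0 down. Monodehydroascorbate reductase, known from plants for regenerating ascorbate, is the annotation of TR_22654 (scaffold 13, 67692 to 69399). It had 93.7 and 88.3 CPM in QM6a DD, 88.0 and 90.9 in QM6a LL, 88.1 and 95.0 in ∆*ypr2* LL and 277 and 295 in ∆*ypr2* DD. Its 3 low groups lay within a few CPM of each other (log2 in darkness 1.60 ± 0.06). Flavohemoglobin, which detoxifies nitric oxide, is encoded by TR_123251 and had 22.4 and 27.0 CPM in QM6a DD and 103 and 61.2 in ∆*ypr2* DD. The small heat shock gene Hsp23 (TR_122363), whose product is a chaperone, had 8.58 and 9.59 CPM in QM6a DD and 67.5 and 55.3 in ∆*ypr2* DD. In light its values crossed between the strains, with 8.35 and 5.33 CPM in QM6a and 6.85 and 11.5 in ∆*ypr2*. TR_4240, annotated as the secreted stress response protein Rds1, went from 0.832 and 1.03 CPM to 9.70 and 8.59.

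Of the 3 lipid genes, TR_121498 (scaffold 7, 1378518 to 1380149) codes for a phosphatidylserine decarboxylase, an enzyme that makes phosphatidylethanolamine. It had 7.75 and 8.33 CPM in QM6a DD and 78.8 and 105 in ∆*ypr2* DD, against 11.95 and 10.8 (QM6a) and 13.1 and 11.7 (∆*ypr2*) in light. Both strains overlapped in light, and the log2 fold change in darkness was 3.46 ± 0.14. The esterase/lipase gene TR_70491 had 0.780 and 1.47 CPM in QM6a DD and 23.6 and 23.3 in ∆*ypr2* DD. TR_1925, annotated as a sphingolipid fatty acid hydroxylase, had 111 and 181 CPM in QM6a DD and 575 and 309 in ∆*ypr2* DD. Its smaller ∆*ypr2* value came near the 233 CPM of a ∆*ypr2* culture in light.

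Among the carbohydrate-active enzymes, *mds1* (TR_45717) codes for a GH47 α-1,2-mannosidase related to EDEM2, which trims mannose from glycoproteins. It had 59.3 and 60.9 CPM in QM6a DD and 188 and 237 in ∆*ypr2* DD, with 60.8 to 66.0 CPM in all 4 light libraries. The GH95 gene TR_5807 (α-L-fucosidase family) and the CE1 esterase gene TR_3568 had means of 12.5 and 16.9 CPM in ∆*ypr2* DD and of at most 3.40 CPM in the other groups. Enzymes of sugar phosphates were TR_49898 (glucosamine-6-phosphate isomerase, 34.4 and 42.5 CPM in QM6a DD against 151 and 173 in ∆*ypr2* DD) and TR_58701 (mannose-6-phosphate isomerase, 4.06 and 3.81 against 12.3 and 14.1). Nitrogen metabolism contributed the amidase gene TR_5970 and the ACC deaminase gene TR_5107, with ratios of 2.97 and 5.42, and the peptidase genes TR_105810 and TR_61127 were close to the limit at 2.86 and 2.81.

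Transport was the largest group with a known function, with 9 genes and ratios in darkness from 2.85 to 6.24. Its list of 91 annotated genes is also the longest of those with a known function, so this rank does not set the chosen genes apart. The same list had 24 genes among the 226 higher in light in the wildtype and 4 among the 73 lower in light. The calcium transporting ATPase gene TR_58952, described below, is not in this list. The MFS permease gene TR_123473 had 29.0 and 35.1 CPM in QM6a DD and 105 and 105 in ∆*ypr2* DD. The highest ratio in the group belonged to the malate permease gene TR_2076, which had 0.468 and 0.599 CPM in QM6a DD and 4.88 and 7.02 in ∆*ypr2* DD. Both genes were well separated between the strains in darkness, and the others were TR_104077 and TR_66819 (amino acid transporters), TR_71059 and TR_67334 (MFS permeases), TR_82327 (an ABC transporter of the PDR type), TR_119710 and TR_68169. For TR_67334 a second annotation names a PTH11-like receptor, so it counts under signalling as well. Of the 91 annotated transporter genes 70 were called up and 17 down in darkness.

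Calcium handling appeared at more than 1 place. TR_68169 is a putative calcium/proton exchanger related to yeast Vcx1 and had 0.780 and 0.926 CPM in QM6a DD and 6.57 and 7.54 in ∆*ypr2* DD (log2 2.99 ± 0.21). TR_58952 is a calcium transporting ATPase related to yeast Pmc1 and had 2.55 and 2.51 CPM against 13.7 and 21.3 (log2 2.74 ± 0.25). In light both genes stayed at low levels in either strain, 1.07 to 1.53 CPM for the first and 1.97 to 3.24 for the second. These genes were put together after their values had been seen.

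Signalling genes included *gpr1* (TR_123806), annotated as a secretin-like G-protein coupled receptor, and TR_72259, an RgsA-like regulator of G-protein signalling, a class that ends the signal of G-proteins. *gpr1* had 9.57 and 8.88 CPM in QM6a DD, 9.47 and 9.06 in QM6a LL, 10.7 and 11.4 in ∆*ypr2* LL and 46.6 and 54.5 in ∆*ypr2* DD. Both ∆*ypr2* light values lay slightly above all wildtype values, and the dark ∆*ypr2* values far above all (log2 in darkness 2.40 ± 0.10). TR_72259 had 10.9 and 11.98 CPM in QM6a DD and 83.2 and 50.9 in ∆*ypr2* DD, where the replicates lay apart but above all others. TR_111053, annotated as retrograde regulation protein 2, a factor that in yeast signals from mitochondria to the nucleus, had 12.3 and 14.3 CPM in QM6a DD and 84.8 and 98.5 in ∆*ypr2* DD.

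The 4 transcription factor genes all belong to the Zn2Cys6 type, the type of YPR2 itself, and had low levels. TR_111515 had 0.520 and 0.926 CPM in QM6a DD and 5.72 and 8.54 in ∆*ypr2* DD. TR_110689 had 0.832 and 1.85 CPM against 7.47 and 10.2, and its log2 fold change of 2.67 ± 0.30 became 3.36 without replicate 2 of QM6a DD. TR_112085 and TR_73104 had ratios of 3.07 and 2.996 in darkness, and all 4 factors had group means in ∆*ypr2* DD from 5.86 to 8.82 CPM. Of 75 annotated transcription factor genes 60 were called up and 13 down in darkness.

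Small secreted cysteine-rich proteins, a class of fungal proteins that act outside the cell, were encoded by 3 genes. TR_105844 had 4.63 and 4.30 CPM in QM6a DD, 4.29 and 4.44 in QM6a LL, 5.35 and 5.77 in ∆*ypr2* LL and 54.3 and 55.2 in ∆*ypr2* DD (log2 in darkness 3.56 ± 0.09). Its dark ∆*ypr2* replicates were nearly equal. TR_34297 had 5.30 and 6.70 against 35.9 and 21.5 CPM in darkness, and TR_124259 had 1.77 and 1.42 against 4.88 and 6.93. None of the annotated genes for cytochrome P450 and other secondary metabolism (27) or for FAD, flavin and GMC oxidoreductases (20) was among the 74. All 74 genes are among 1142 annotated genes, so few are due in lists of these sizes. Their absence therefore does not set the 74 apart.

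The largest ratio of all belonged to TR_121785 (scaffold 9, 410654 to 411426), annotated as an ATP-dependent RNA helicase, an enzyme class that unwinds RNA. It had 1.46 and 1.74 CPM in QM6a DD, 1.18 and 1.48 in QM6a LL, 1.09 and 1.05 in ∆*ypr2* LL and 48.9 and 68.4 in ∆*ypr2* DD. The gene was near the floor of the libraries in 3 groups and above the median of all genes in the fourth group per kb (log2 in darkness 5.14 ± 0.20). TR_54239, a multicopper oxidase gene, had 0.572 and 0.708 CPM in QM6a DD and 8.22 and 12.2 in ∆*ypr2* DD. The remaining annotated genes were TR_51686 (dienelactone hydrolase, ratio 3.09), TR_55837 (adenine phosphoribosyl transferase), TR_69885 (initiation factor 2B), TR_111912 (carbonic anhydrase) and TR_66614 (alpha/beta hydrolase), with log2 fold changes in darkness from 1.58 to 1.93.

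Among the 27 genes listed as unknown or orphan, 17 had means under 5 CPM in all groups other than ∆*ypr2* DD, and 4 under 1 CPM. These 17 met the level limit only through ∆*ypr2* DD, so the counts are a description. The ratios of the 27 genes in darkness ran from 2.84 to 17.03 and their means in ∆*ypr2* DD from 5.19 to 712 CPM. TR_49308 (scaffold 12, 705849 to 706558) had the highest level of them, with 233 and 214 CPM in QM6a DD, 270 and 260 in QM6a LL, 259 and 279 in ∆*ypr2* LL and 694 and 729 in ∆*ypr2* DD. Per kb of gene span it was the highest of the 74 genes in ∆*ypr2* DD, at 1002 CPM against 833 for *pdc1*. TR_105287 had 0.728 and 0.436 CPM in QM6a DD and 16.3 and 19.6 in ∆*ypr2* DD, the second largest ratio of all at 17.03. A ratio of at least 8 was also reached by TR_68574 (11.2), TR_109925 (10.9), TR_121163 (10.5) and TR_103156 (9.39). TR_103156 had 5 and 2 counts in QM6a DD and 111 and 137 in ∆*ypr2* DD, 0 and 0 in QM6a LL and 1 and 1 in ∆*ypr2* LL. Its log2 fold change in darkness of 4.89 ± 0.32 became 5.62 without replicate 1 of QM6a DD.

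The replicate cultures of ∆*ypr2* in darkness did not deviate in a single direction. Replicate 2 was higher for 46 genes and replicate 1 for 28. Apart by more than 1.5-fold were 9 genes, 7 of them lower in replicate 2 (*pdc1*, TR_121416, TR_1925, TR_75394, TR_123251, TR_72259 and TR_34297) and 2 higher (TR_55837 and TR_58952). TR_121416, of unknown role, had 79.9 and 157 CPM in QM6a DD, 573 and 356 in ∆*ypr2* DD, 138 and 186 in QM6a LL and 197 and 277 in ∆*ypr2* LL. In this gene replicate 2 was the higher culture in each group except ∆*ypr2* DD. The same order was found for *pdc1*, TR_1925, TR_75394, TR_123251 and TR_34297, but not for TR_72259.

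The effect of the deletion in light was the comparison that the selection had not used, although the wildtype light libraries took part in it through the light ratio. All 74 genes passed the filter over all libraries, some of them only through ∆*ypr2* DD, and 71 passed it on the light libraries alone. In light 0 of the 74 genes were called up and 0 down by edgeR at adjusted p under 0.01 and at least 2-fold, where 0.378% of all genes tested were called up and 0.142% down. At these shares fewer than 1 call is due among 74 genes, so the count does not set them apart. limma-voom called 0 genes as well and DESeq2 called 1, TR_5807. At an unadjusted p under 0.05 there were 17 genes (22.97%, against 17.3% of all genes), 14 of them higher and 3 lower in ∆*ypr2*. At an adjusted p under 0.05 without a fold limit there were 4 (5.36% of all genes).

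Those 4 were TR_122778, TR_123473, TR_5807 and TR_123282. The short chain dehydrogenase gene TR_122778 had 56.4 and 52.5 CPM in QM6a LL and 33.4 and 39.1 in ∆*ypr2* LL. ∆*ypr2* was thus lower in light and higher in darkness, without overlap in either (log2 in light -0.60 ± 0.08, edgeR adjusted p = 0.0043, 0.0174 to 0.046 without single light libraries, less than 2-fold). The permease gene TR_123473 had 29.4 and 32.3 CPM in QM6a LL and 19.3 and 22.6 in ∆*ypr2* LL, again lower in light (log2 -0.57 ± 0.11, adjusted p = 0.021). The adjusted p of TR_123473 was between 0.073 and 0.19 when either strain lost 1 of its light libraries. The opposite was seen for the fucosidase gene TR_5807, with 1.58 and 1.36 CPM in QM6a LL and 2.99 and 3.81 in ∆*ypr2* LL (log2 1.20 ± 0.22, adjusted p = 0.013, and 0.0243 to 0.139 without single light libraries). TR_5807 had 1.87 and 2.23 CPM in QM6a DD and 11.9 and 13.2 in ∆*ypr2* DD, so that it was higher in ∆*ypr2* under both conditions and most in darkness. TR_123282, of unknown role, had 2.88 and 3.26 CPM in QM6a LL and 4.83 and 5.10 in ∆*ypr2* LL (log2 0.68 ± 0.16, adjusted p = 0.038). For this gene the adjusted p was 0.113 in DESeq2, 0.0647 in limma-voom, 0.0578 with the replicate block and 0.111 to 0.249 without single light libraries, so its value did not hold at 0.05.

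Smaller values in light leaned towards ∆*ypr2*. The log2 fold change was above 0 in 51 of 74 genes (68.9%, against 48.6% of all genes tested), with a median of 0.19 against 0.00 over all genes. Both ∆*ypr2* light libraries were above both wildtype ones in 29 genes (39.2%), which held for 28.3% of all genes, and below them in 9 (12.2%, against 24.5%). The other 36 overlapped. In the set higher in light in the wildtype the median was -0.06 with 81 of 226 genes above 0, and in the set lower in light it was 0.50 with 63 of 73. The sets were sorted by the same wildtype light libraries that enter this contrast, and how much of the order of these medians comes from that was not tested.

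**Figure D3:**
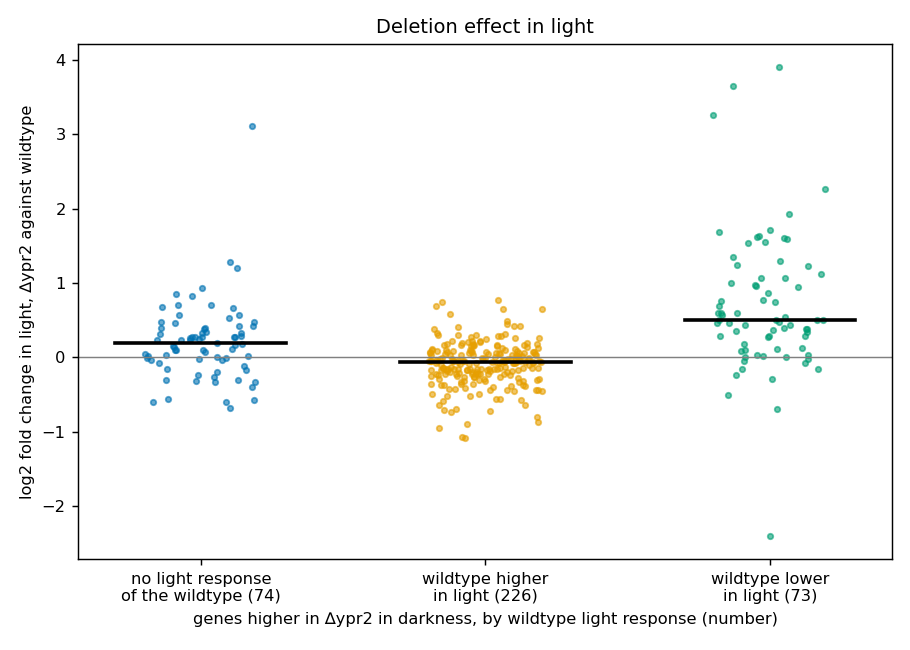
Log2 fold change of ∆*ypr2* against wildtype in light for 1 point per gene in 3 sets that were all higher in ∆*ypr2* in darkness, with a line at the median. The medians are 0.19 for the 74 genes, -0.06 for the 226 genes with the wildtype higher in light and 0.50 for the 73 with the wildtype lower. The topmost point of the first set is TR_103156, which had 0 counts in the wildtype in light.

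For 57 of the 74 genes the log2 fold change in light with 2 standard errors on either side stayed within 1 of 0, that is, below a 2-fold change. Because these standard errors can be too small at few counts, the 57 genes are not shown to lie below 2-fold. In 13 genes the interval reached 1 or more and in 5 it reached -1 or less, including 1 gene that did both. TR_54239, the multicopper oxidase gene, was among those reaching upward, with 0.789 and 0.592 CPM in QM6a LL and 1.496 and 1.91 in ∆*ypr2* LL (log2 1.28 ± 0.37, edgeR adjusted p = 0.093). For this gene the interval spans values below and above 2-fold. TR_79222 (log2 -0.16 ± 0.23) had a narrower interval, but with 21 to 27 counts in each light library its standard error may be too small.

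**Figure D4:**
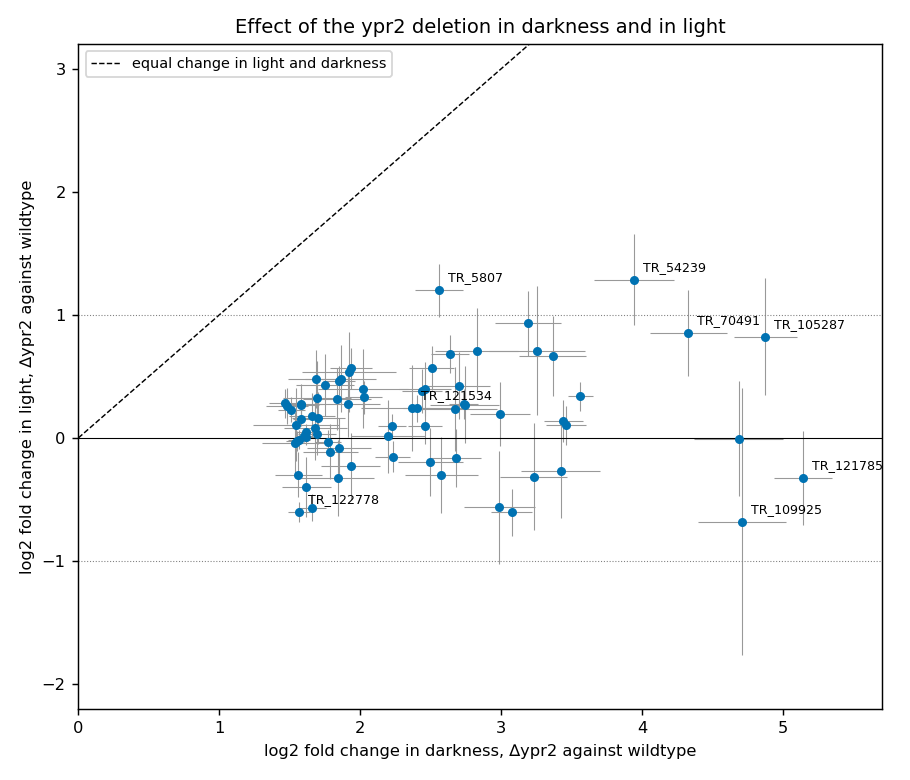
Log2 fold change of ∆*ypr2* against wildtype in light (vertical) against that in darkness (horizontal) for 73 of the 74 genes, with standard errors; TR_103156 is left out because it had 0 counts in the wildtype in light. All points lie below the dashed line of equal change, and the dotted lines mark a 2-fold change in light, which the points of TR_5807 (1.20) and TR_54239 (1.28) exceed.

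Light against darkness in ∆*ypr2*, and the contrast of the deletion effects under the 2 conditions, share libraries with the selection and are given as a description. In ∆*ypr2* 70 of the 74 genes were called lower in light (13.3% of all genes), with a median log2 of -2.00. The 4 others were TR_121416 (-1.05), TR_119710 (-0.91), TR_82327 (-0.98) and TR_105810 (-0.98), which were lower in light as well. The deletion effect was called smaller in light in 67 genes (8.37% of all genes) and called larger in none of the 74 (edgeR, and also limma-voom and DESeq2); the fitted difference was negative in all 74. The 7 genes without a call for this difference were TR_121416, TR_1925, TR_75394, TR_55837, TR_111515, TR_54048 and TR_103156. The first 4 of them had dark ∆*ypr2* replicates more than 1.5-fold apart, and TR_103156 had few counts.

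All 74 genes could be placed on the v2.0 assembly, on 33 scaffolds. Directly beside them were 148 gene places, of which 36 (24.3%) held a gene called upregulated in darkness, while this was 9.04% around all genes. The share was 20.4% for the set higher in light and 28.7% for the set lower in light. At least 1 such neighbour was found for 31 of the 74. The 36 places include the 4 genes of the 74 that lie beside another of them, which the rule itself chose. A gene between 2 of the 74, such as TR_3055, counts for both. The share of 24.3% is thus a description. A pair of the 74 genes lay side by side at 2 places, TR_110323 with TR_66614 on scaffold 19 and TR_111053 with TR_68169 on scaffold 24. The latter pair joins the gene of retrograde regulation protein 2 (193442 to 195395) with that of the calcium exchanger (196226 to 197548).

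On scaffold 1, a stretch of 15 genes from 2787639 to 2827313 held TR_54239, TR_54048, TR_103153 and TR_103156. The stretch was found by these 4 genes, so only the others bear on it. Of the 10 others tested 7 were called up in darkness (9.68% of all genes) and 0 down. Among these 7, TR_74282 and TR_2068 met the level and the darkness ratio but were left out by the list of genes. TR_2068 was within the light limits as well, so only the list kept it from the 74. TR_74282 lies between the 4 genes and is annotated as QI74 orthologue. It had a mean of 1299 CPM in QM6a DD and 38134 in ∆*ypr2* DD. TR_103153 is its direct neighbour and had 1.404 and 1.09 CPM in QM6a DD and 12.3 and 11.5 in ∆*ypr2* DD. The change was not continuous, since TR_103143 between 2 of the 74 genes had means of 6.64 and 6.78 CPM (log2 -0.03).

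On scaffold 19, 17 genes from 569104 to 621862 held TR_123274, TR_123282, TR_110323 and TR_66614. Of the 12 others tested in this stretch, also found by its 4 chosen genes, 2 were called up and 2 down. The alcohol oxidase gene *aox1* (TR_80659) lies next to TR_123282 and had means of 231 CPM in QM6a DD and 5155 in ∆*ypr2* DD. It is not one of the 74, being on the list of genes left out and below the light limits. TR_123282 had 3.28 and 2.67 CPM in QM6a DD and 19.5 and 19.0 in ∆*ypr2* DD. TR_110323 had 1.09 and 1.14 CPM against 6.10 and 6.67, and TR_66614 had 1.46 and 1.20 against 5.30 and 5.27. These 3 genes were again low in the wildtype and had replicates close to each other.

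**Figure D5:**
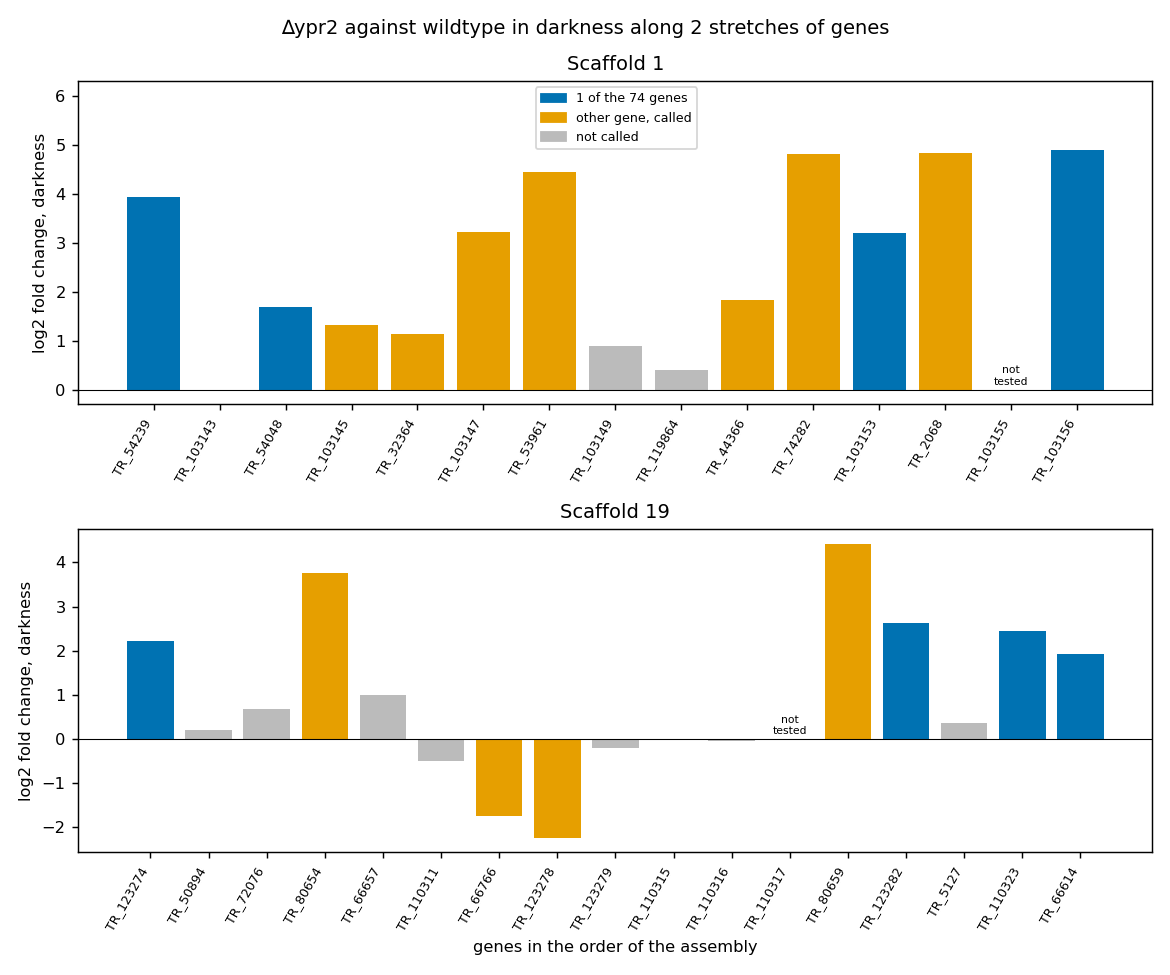
Log2 fold change of ∆*ypr2* against wildtype in darkness (bars) for successive genes of scaffolds 1 and 19, with the 74 genes in blue, other called genes in orange and genes without a call in grey. Apart from the chosen genes, 7 of 10 tested genes are called up on scaffold 1, and 2 of 12 up and 2 down on scaffold 19.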

How the data were processed

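The authors aligned single reads of 8 libraries (Bowtie2, SAMtools and bedtools in the processing notes; versions not given in the sources used here) and estimated values per transcript with RSEM. The deposited values are expected counts, not normalized, although the table is named for FPKM: 71.8 to 80.6% were whole numbers and totals differed. Reads shared by near-identical genes are split by estimate. Members and lists were chosen with earlier results of these data known.

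CPM for the selection used column sums. Expected counts were rounded and tested two-sided in edgeR 4.0.16 (R 4.3.3; quasi-likelihood) with TMM scaling, all 8 libraries, 4 group means and 4 residual degrees of freedom. The filter of 0.5 CPM in at least 2 libraries kept 8469 of 9143 genes. Adjusted p values are Benjamini-Hochberg over all genes tested, and calls needed an adjusted p under 0.01 and 2-fold. Other settings used DESeq2 1.42.0, limma 3.58.1, other scalings, no filter and single libraries left out. On simulated counts of 8384 genes, the test for light recovered 38%, 100%, 94% and 100% of 2-, 3-, 4- and 8-fold changes. There were 0 false calls. Each share rests on 50 changed genes and was not split by level. Of the chosen genes, 38 had means under 5 CPM in QM6a LL and 36 in ∆*ypr2* LL. Genes with a mean under 50 counts were given no change, and recovery at low levels was not tested separately. The shares therefore do not apply to these genes. The precision given by depth covers counting error only. Nothing says that the cultures were handled on separate days, so p values measure the spread between these samples.

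Named genes were those with the highest levels or ratios, those called in light, those at the limits, up to 4 per list, and genes in runs. Names come from the annotation the study supplied for 1142 genes, and its fold changes were not used. Scaffold positions are from RefSeq (9115 of 9143 genes matched, v2.0), with scaffold numbers read from the order of coordinates and equal to the study's for 1140 of 1140 genes checked.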

Additional observations from a re-analysis of the deposited data

Results flagged for a closer look

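By the interaction term of edgeR, 67 of the 74 genes responded to the deletion unequally in the 2 conditions. In all 67 the effect was smaller in light, which was called for 8.37% of all genes tested. The same was called for 220 of the 226 genes higher in light in the wildtype and for 39 of the 73 lower in light. The darkness libraries and the wildtype light libraries that chose the genes also enter this term, which largely fixes the count. The count is a description.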

How the results depend on the processing

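In light, 0 of the 74 genes were called. DESeq2, a fit of only the groups compared, and an adjusted p under 0.05 each called 1 gene, which was TR_5807 every time. Leaving out single libraries gave 0 to 0 calls in light, 72 to 74 in darkness, 66 to 71 for light against darkness in ∆*ypr2* and 54 to 68 for the difference of the effects. In 2 of these fits 72 genes were tested. With the replicate block, 0, 74, 69 and 66 genes were called. The replicate numbers share only a number, since deviations of same-numbered libraries correlated at -0.084 to 0.054. The rule chose 66 to 76 genes without single libraries (58 to 69 shared with the 74, fewest without replicate 2 of QM6a DD), 62 at an offset of 0 (59 shared) and 74 at an offset of 2 (55 shared with the 74), 51 at a level of 10 CPM and 105 at 1 CPM, and 74 with TMM-scaled CPM (68 shared).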
